A study of Mus musculus with 6 samples.

Results

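The 45 genes described here encode factors that assemble, mature and export the large (60S) ribosomal subunit. They were chosen by name, from general knowledge of ribosome biogenesis and with earlier results of these data known, and all 45 were found by symbol among the 17463 genes measured. TER119-negative erythroblasts from the fetal liver of C57BL/6J mice were cultured for 30 h in a medium containing Epo, the cytokine that drives red cell maturation. The medium of the cholesterol group was given 40 µM cholesterol (3 samples), and that of the control group had none added (3 samples, labelled untreated, whereas the study elsewhere names a vehicle). Cells that had gained TER119, a surface mark of maturing erythroid cells, were then sorted, and their polyadenylated RNA was sequenced. The samples carry the numbers 1 to 3 in each group. No source states whether a number stands for a litter, a culture or a day, so the p-values below measure the spread between these samples, which may be technical.

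A ribosome is built in the nucleolus, where a long precursor RNA is cut and folded while ribosomal proteins are added. The pre-60S particle is shaped by RNA helicases and scaffold proteins, remodelled by large ATPases and GTPases, and then carried through the nuclear pore, after which the last factors leave in the cytoplasm. Erythroid precursors make many ribosomes while they grow and divide, and they lower ribosome production as they mature and condense their nucleus. The question put to these genes was whether excess cholesterol kept their transcripts high in maturing erythroblasts.

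Each library held between 19826797 and 20061702 counts, and 11277 genes, all 45 members among them, had enough counts to be tested. The erythroid identity of the cells was checked on 11 of 11 erythroid markers, which took 14.0% to 20.8% of the counts (for example Slc4a1, the band 3 anion exchanger, at 9749 to 12970 CPM, the unit of counts scaled to a common library total). The 3 samples of a group differed from one another, and the libraries numbered 3 stood apart in both groups. In the libraries numbered 1, 2 and 3, the summed level of 9 granulocyte markers was 70.3, 253 and 673 CPM in control and 40.5, 110 and 280 CPM with cholesterol. The treatment itself was visible in Abcg1, the cholesterol exporter, which read 6.92, 4.36 and 6.38 CPM in control and 101, 93.8 and 98.9 CPM with cholesterol (adjusted p = 0.00292, edgeR's quasi-likelihood test with Benjamini-Hochberg adjustment).

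Some short motifs were common in the promoters of the factors. RefSeq promoter windows, from 250 bases before to 50 after the start on build GRCm38.p6, were matched by symbol for 39 of the 45 genes and gave 45 windows, because some genes have several starts. The letters CCGGAAG, the core bound by ETS factors, stood in 46.7% of these windows and in 8.86% of all 32851 windows, read on both strands. The E-box CACGTG, the palindrome bound by MYC and its partners, stood in 20.0% against 7.15%, and its variant CACGCG in 40.0% against 9.27%. The share of member windows with AGATAA, the site of the erythroid factor Gata1 and its relatives, was 6.67% against 11.2%. That with AAGATGGC, which YY1 binds, was 2.22% against 2.75%. No member window held CGCATGCG, the NRF1 core (1.87% of all windows), or TCACNCCAC, a form of the sterol regulatory element (1.24%). Motifs could overlap, since CACGCGTG holds the variant E-box on both strands. The member windows were also richer in G and C, at a median of 59.3% against 52.7%, and the part of base composition in these shares was not tested. The 120 bases before the start are shown for 5 members, 5′ to 3′ on the strand of the gene, with E-boxes, variant E-boxes and the ETS core in capitals. Nop2 (chr6:125131763-125131882, + strand), Nmd3 (chr3:69721935-69722054, + strand) and Surf6 (chr2:26902888-26903007, - strand) show the motifs before the start and were picked for them. Ddx24 (chr12:103425848-103425967, - strand) is the member that was called for the sample number with a level highest in the samples numbered 3, and Ppan (chr9:20888055-20888174, + strand) is the member with a call for cholesterol, both described below.
Nop2: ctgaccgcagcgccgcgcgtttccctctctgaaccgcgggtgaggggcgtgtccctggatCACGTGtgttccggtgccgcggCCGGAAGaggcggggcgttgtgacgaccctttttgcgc
Nmd3: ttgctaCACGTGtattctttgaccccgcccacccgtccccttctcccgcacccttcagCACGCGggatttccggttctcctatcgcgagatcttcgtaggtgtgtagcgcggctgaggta
Surf6: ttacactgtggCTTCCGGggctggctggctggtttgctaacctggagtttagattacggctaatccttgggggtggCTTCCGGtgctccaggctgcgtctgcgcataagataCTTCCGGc
Ddx24: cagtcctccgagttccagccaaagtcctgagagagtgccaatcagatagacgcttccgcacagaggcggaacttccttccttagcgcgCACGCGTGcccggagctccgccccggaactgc
Ppan: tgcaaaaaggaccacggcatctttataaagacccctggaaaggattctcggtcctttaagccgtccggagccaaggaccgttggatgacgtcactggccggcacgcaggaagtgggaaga
In the bases shown, the E-box of Nop2 lies close to its ETS core, Surf6 holds the ETS core 3 times, and Ppan holds none of the 3 motifs in the bases shown. Its full window holds both the variant E-box and the ETS core and is counted in the shares above. A match says only that the letters are there, and binding was not measured.

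The factors were expressed at moderate levels that differed widely between genes. Levels are compared between genes in FPKM, which scale counts by transcript length and library size, as the mean over the 6 samples. The median member had 20.4 FPKM. The most abundant were Noc2l (85.5 FPKM), a nucleolar protein that escorts early pre-60S particles, and Nsa2 (81.6 FPKM), which acts in the nuclear maturation of the particle. The least abundant was Mdn1 (1.35 FPKM), a very large ATPase that strips factors from the pre-60S particle. Each member had between 108 and 5463 counts in every sample, so that none lay near the detection floor of 3 counts (0.151 CPM).

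With cholesterol, the level of nearly all the factors lay close to that in control. In the fit without the replicate number, 0 of the 45 members were higher (background 0.00887% of all genes tested) and 0 were lower (background 0%) at an adjusted p under 0.05 in edgeR's test. DESeq2 and limma also called 0 members, and 0 members had an unadjusted p under 0.05 (2.63% of all genes tested). The log2 fold changes ran from −0.11 to 0.19 with a median of 0.03, where the median over all genes tested was 0.01. They were above 0 for 32 members and below 0 for 13, where 52.1% of all genes tested were above 0. With libraries scaled by total counts alone, they were above 0 for 39 members and below 0 for 6, with a median of 0.06 over the members and 0.04 over all genes tested. The median and the positive count moved when 1 sample was left out, which leaves a number in 1 group only. The median then lay between −0.08 and 0.15. The positive count was 5 without control sample 3, 8 without cholesterol sample 1 and 42 without control sample 1. With the replicate block it was 33, and it was 30, 29 and 30 without the pairs numbered 1, 2 and 3. In bulk RNA, fewer cells of a type and less RNA per cell cannot be told apart.

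Samples with the same number deviated together, but the check used cannot tell whether numbers 1 and 2 pair the samples. The comparison was also made with the replicate number as a block, which assumes that pairing. In that paired fit, 1 of the 45 members was called higher (background 1.65%) and 0 were called lower (background 5.20%), at an adjusted p under 0.05. The member was Ppan. At an unadjusted p under 0.05, 2 members were counted, or 4.44%, against 19.6% of all genes tested. With the block, the 95% interval of the log2 fold change lay within 0.3 of 0 for 42 of the 45 members and within 0.4 of 0 for all 45, between −0.26 and 0.36 at the extremes. Within the pairs numbered 1, 2 and 3, the mean difference of the members, cholesterol minus control, was 0.02, 0.04 and 0.02 in log2 CPM (SD 0.01 between pairs). The mean over all genes tested was below 0 in each pair, at −0.016, −0.0631 and −0.0755. The median log2 CPM over all genes tested moved less, at 4.44, 4.42 and 4.43 in control and 4.44, 4.42 and 4.40 with cholesterol. Of the members, 12 (26.7%) were higher with cholesterol in all 3 pairs (background 20.0%) and 5 (11.1%) were lower in all 3 (background 20.1%).

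**Figure D1:**
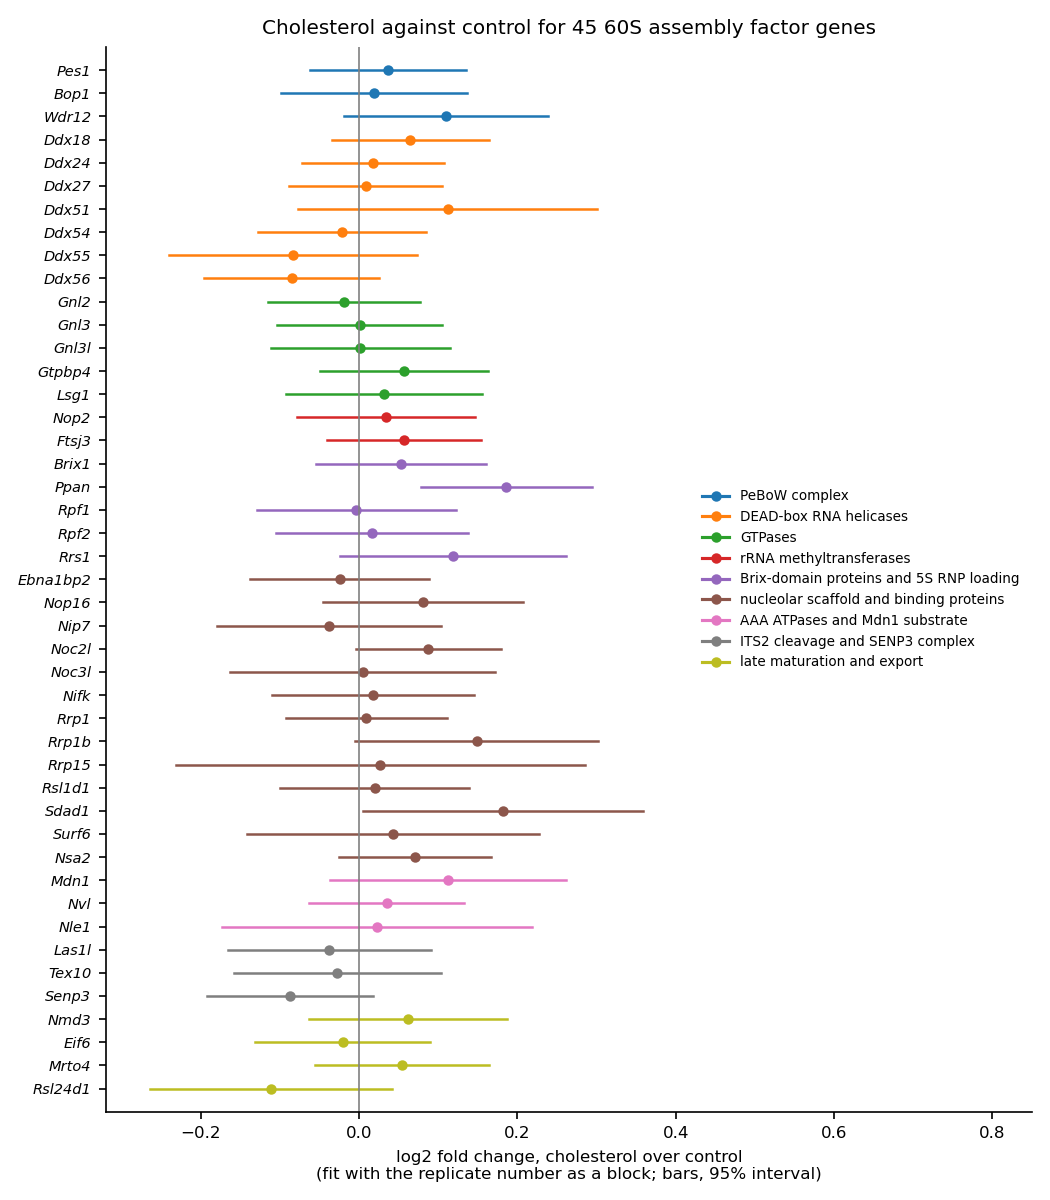
Log2 fold change of cholesterol over control for each of the 45 factors, in the fit with the replicate number as a block. Points are estimates, bars are 95% intervals and colours mark the role groups. All intervals lie between −0.26 and 0.36, and those of Ppan and Sdad1 lie wholly above 0.

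Among the Brix-domain proteins and the factors that load the 5S RNP, 4 of the 5 members had a positive log2 fold change. Ppan, the counterpart of yeast Ssf1 that binds early pre-60S particles, read 61.1, 48.3 and 44.5 CPM in the control samples numbered 1 to 3 and 67.7, 56.9 and 50.3 CPM in the cholesterol samples. The cholesterol sample was the higher of each pair, but the groups overlapped. The mean of Ppan was 51.3 ± 8.67 CPM in the control group and 58.3 ± 8.77 CPM in the cholesterol group (SD, n = 3 each). Its log2 fold change was 0.18 ± 0.16 (SE), with an adjusted p of 0.9998 from edgeR, and lay between 0.06 (without cholesterol sample 1) and 0.33 (without control sample 1) when 1 sample was left out. With the replicate block it was 0.19 ± 0.05 (SE), with an adjusted p of 0.0351 from edgeR. That call was kept without the samples numbered 3 (adjusted p = 0.034) and was lost without those numbered 1 (0.0929) or 2 (0.227), and in DESeq2 with the block (0.448). Ppan lies at chr9:20888175-20892179 on GRCm38.p6, where 2 loci that have only a number for a name overlap it. Rpf1, a Brix-domain protein, differed little between samples, at 40.0, 34.2 and 39.8 CPM in control and 37.7, 36.9 and 38.9 CPM with cholesterol.

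The 3 genes of the PeBoW complex, which is needed to process the precursor of the large rRNAs, had log2 fold changes of 0.00 to 0.10. Pes1, which gives the complex its first letters, read 99.3, 84.6 and 63.3 CPM in control and 100, 89.3 and 64.2 CPM with cholesterol. Bop1, its partner, read 68.8, 56.9 and 34.2 CPM in control and 65.6, 56.6 and 38.3 CPM with cholesterol (log2 fold change 0.00 ± 0.30, SE, n = 3 each). The groups of both genes overlapped along almost their whole range. Wdr12, the WD-repeat subunit, read 42.6, 36.8 and 23.4 CPM in control and 43.6, 39.1 and 27.4 CPM with cholesterol. Its log2 fold change was 0.10 ± 0.26 (SE). The cholesterol sample was the higher of each pair, and the groups overlapped.

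Of the 7 DEAD-box helicases, which unwind the precursor RNA, 4 had a positive log2 fold change and 3 a negative one. Ddx55 read 18.2, 17.6 and 19.2 CPM in control and 17.1, 16.3 and 18.5 CPM with cholesterol, lower in each pair by a small amount (log2 fold change −0.08 ± 0.09, SE, n = 3 each). Ddx24, the most abundant helicase per length at 55.2 FPKM, had a mean of 164 ± 41.1 CPM in the control group and 165 ± 36.7 CPM in the cholesterol group (SD, n = 3 each). The 5 GTPases had log2 fold changes between −0.02 and 0.05. Gnl2, which acts before nuclear export, read 96.2, 93.1 and 85.4 CPM in control and 93.2, 93.1 and 84.7 CPM with cholesterol. Gtpbp4 (Nog1), which probes the exit tunnel of the forming subunit, read 67.2, 56.3 and 46.2 CPM in control and 68.4, 59.4 and 48.6 CPM with cholesterol. Both of the rRNA methyltransferases stayed near control, with Ftsj3 at 97.4, 82.4 and 65.4 CPM in control and 102, 85.7 and 68.0 CPM with cholesterol.

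The 13 nucleolar scaffold and binding proteins had log2 fold changes from −0.04 to 0.19, of which 11 were positive. Noc2l read 267, 236 and 189 CPM in control and 269, 251 and 212 CPM with cholesterol, higher in each pair but overlapping between groups (log2 fold change 0.08 ± 0.15, SE, n = 3 each). Nsa2 read 226, 214 and 211 CPM in control and 244, 237 and 204 CPM with cholesterol. Here the third pair ran the other way. Rrp1b, a nucleolar relative of yeast Rrp1, read 26.3, 24.1 and 15.3 CPM in control and 31.6, 23.9 and 17.5 CPM with cholesterol. Nop16 read 41.7, 32.7 and 22.1 CPM in control and 43.0, 35.0 and 23.9 CPM with cholesterol. Sdad1, named after its values were seen because it was the other member with an unadjusted p under 0.05 in the paired fit, had the highest log2 fold change without the block (0.19 ± 0.25, SE) and, with the block, an adjusted p of 0.237 from edgeR.

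The ATPases that remodel the particle, Nvl and Mdn1, had log2 fold changes of 0.04 and 0.11, and Nle1, a substrate of Mdn1, had one of 0.03. Mdn1 read 26.2, 26.9 and 19.0 CPM in control and 31.1, 26.2 and 20.7 CPM with cholesterol. Nvl, which pulls other factors off the particle, read 91.1, 89.7 and 78.4 CPM in control and 91.1, 95.2 and 79.3 CPM with cholesterol. The late factors split evenly in direction. Mrto4, a placeholder for the stalk protein P0, read 72.0, 62.4 and 42.2 CPM in control and 76.2, 61.0 and 45.8 CPM with cholesterol, while Rsl24d1, the placeholder for a late ribosomal protein, had the lowest log2 fold change of all members (−0.11 ± 0.18, SE, n = 3 each), at 28.1, 23.1 and 20.9 CPM in control and 26.1, 23.6 and 17.3 CPM with cholesterol.

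The 3 genes tied to cleavage of the second internal spacer (Las1l, Tex10 and Senp3) had negative log2 fold changes, from −0.09 to −0.03, and none passed the test. Senp3, the SUMO protease that frees this complex, was the member whose groups did not overlap. It read 76.7, 73.1 and 71.3 CPM in control and 68.3, 69.4 and 70.5 CPM with cholesterol. All cholesterol values lay below all control values, as they did for 4.30% of all genes tested (1 of 45 members, or 2.22%), whereas 0 members had all cholesterol values above control (3.72% of all genes tested). The mean of Senp3 was 73.7 ± 2.75 CPM in the control group and 69.4 ± 1.08 CPM in the cholesterol group (SD, n = 3 each). Its log2 fold change was −0.09 ± 0.06 (SE), with an adjusted p of 0.9998 from edgeR. An exact permutation test of 3 samples against 3 cannot give a p below 0.1.

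**Figure D2:**
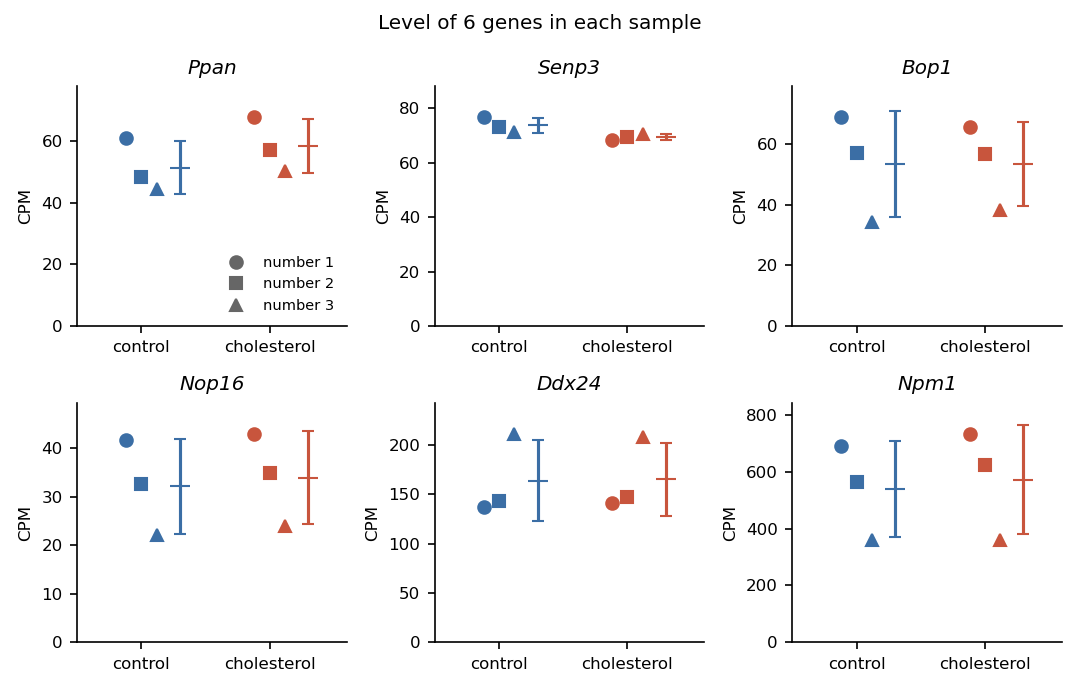
CPM of 5 factors and of the nucleolar chaperone Npm1 in each of the 6 samples, by group. Marker shapes give the sample number, and the bars beside them give the mean ± SD (n = 3). The same-numbered samples of both groups lie at like heights for Bop1, Nop16, Ddx24 and Npm1, while Senp3 alone of these 6 separates the groups.

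The samples numbered 1, 2 and 3 differed far more in these genes than the treatments did. The mean log2 CPM of the members was 5.68, 5.50 and 5.25 in the control samples numbered 1, 2 and 3 and 5.70, 5.55 and 5.28 in the cholesterol samples. As a share of all counts, the 45 genes took 0.299%, 0.266% and 0.235% in control and 0.302%, 0.277% and 0.238% with cholesterol. In edgeR's test of the replicate number, with the treatment in the model, 40 of the 45 members (88.9%) were called at an adjusted p under 0.05 (background 46.3%). Of these, 39 (86.7% of members) were lowest in the samples numbered 3 (background 22.4%), and 1, Ddx24, was highest there (background 22.9%). The level was highest in the sample numbered 1 and lowest in that numbered 3 within both groups, with number 2 between them, for 36 members (80.0%; background 20.2%).

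**Figure D3:**
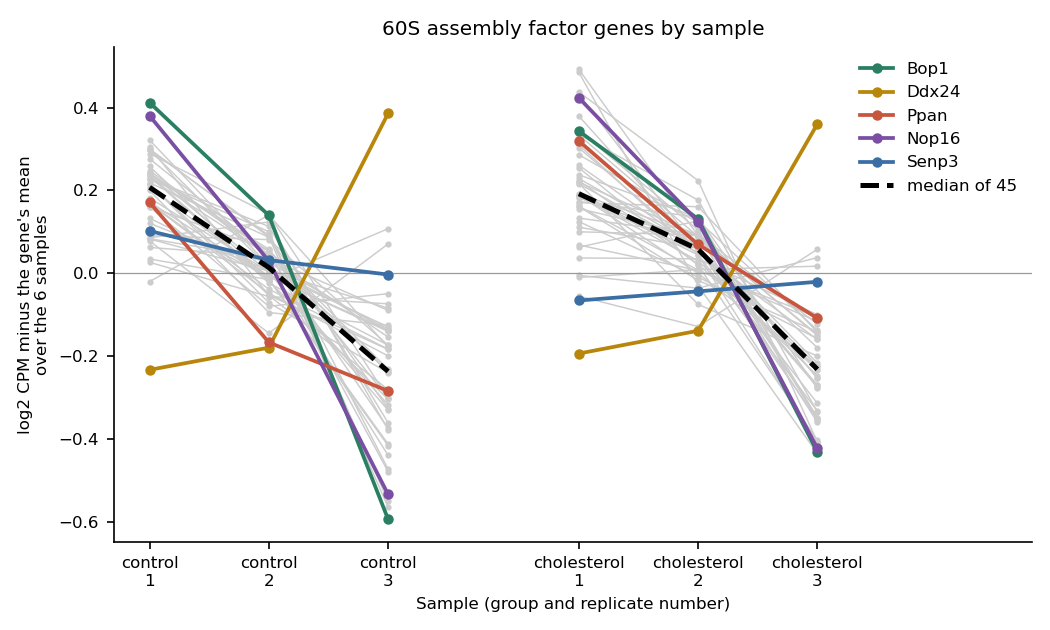
Log2 CPM of each of the 45 factors in each sample, minus the gene's mean over the 6 samples. Grey lines are single genes, 5 genes are coloured, the dashed line is the median of the 45, and lines join the samples of a group as a guide. The median lies above 0 in the samples numbered 1 and below 0 in those numbered 3 in both groups, and Ddx24 runs the other way.

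Number 1 exceeded number 3 by a median of 0.45 (log2) over the members in control and 0.43 with cholesterol, against 0.01 and 0.00 over all genes tested, and 40 members were higher in number 1 within both groups, as were 41.8% of the genes tested in these samples. The libraries numbered 3 weighed on the count. Without them, 20 members were called between numbers 1 and 2 (background 14.9%), all of them lower in number 2. The median difference of number 1 over number 2 was then 0.19 in control and 0.16 with cholesterol. Between numbers 2 and 3 the corresponding medians were 0.25 and 0.29.

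All 3 genes of the PeBoW complex were called for the number (background 46.3%). Bop1 had an adjusted p of 2.36e-08 in edgeR's test over all 3 numbers, and a log2 difference of −0.89 (SE 0.07) in number 3 against number 1. Nop16, at −0.88 (SE 0.07), and Rrp1b, at −0.82 (SE 0.09), came next. Wdr12, Mrto4 and Pes1 differed by −0.76, −0.75 and −0.65, and the 4 members Rrp15, Ddx18, Sdad1 and Rrs1, by −0.76 to −0.71, differed more than Pes1. These are differences and not levels, since Mrto4 was at 52.9 FPKM and Rrp1b at 5.05 FPKM. By role, the median difference of number 1 over number 3 in control and with cholesterol was 0.86 and 0.67 for the PeBoW complex, 0.48 and 0.46 for the 13 scaffold and binding proteins, 0.45 and 0.43 for the Brix-domain and 5S RNP group and 0.44 and 0.45 for the late factors. It was smallest for the spacer cleavage group, at 0.20 and 0.28. Noc2l differed by −0.42 (number 3 against number 1), Ftsj3 by −0.57, Gtpbp4 by −0.52, Mdn1 by −0.53, Rsl24d1 by −0.51 and Ppan by −0.44, all called. Nvl (−0.21) and Nsa2 (−0.18) differed least among the named members that were called.

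Among the called members, Ddx24 was the exception in direction. It read 138, 143 and 211 CPM in the control samples numbered 1, 2 and 3 and 141, 147 and 208 CPM in the cholesterol samples. In number 3 it was higher than in number 1 by a log2 difference of 0.59 (SE 0.05). Its adjusted p in edgeR's test over all 3 numbers was 3.34e-08. The samples numbered 3 lay above all others in both groups. The other 6 helicases included 5 that were called and lowest in number 3 (background 22.4%). Ddx55, which was not called, was also higher in number 3 than in number 1 in both groups, by a log2 difference of 0.09 (SE 0.09). Ddx55 (adjusted p = 0.356), Rpf1 (0.209), Senp3 (0.904), Gnl2 (0.0596) and Noc3l (0.288) were the 5 members not called for the number in edgeR's test. Noc3l was named after its values were seen. A p that misses the threshold does not show that their levels were equal.

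**Figure D4:**
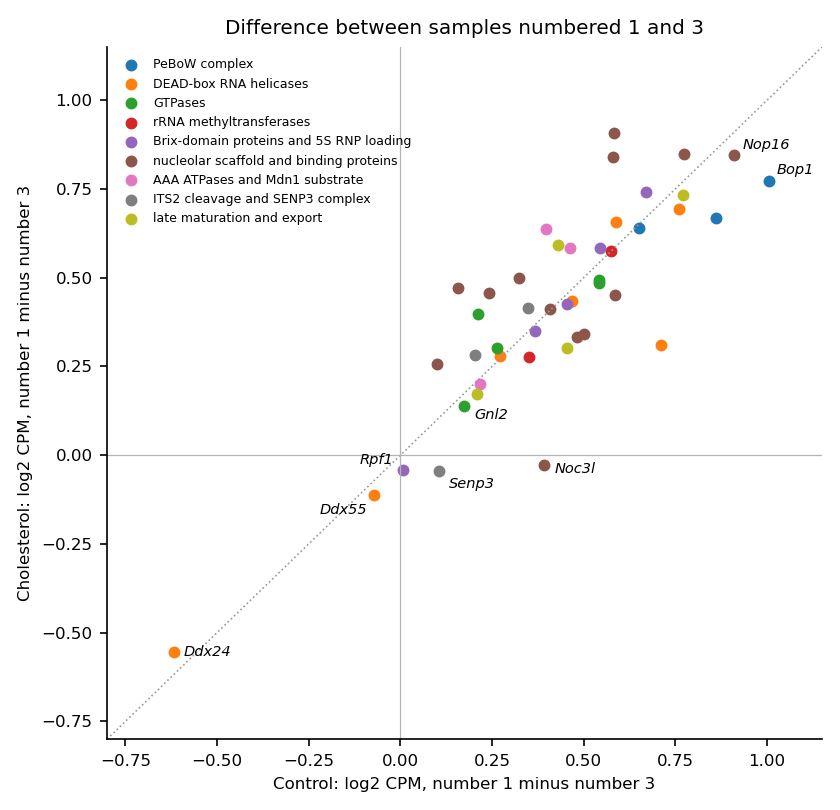
Difference in log2 CPM between the samples numbered 1 and 3 for each of the 45 factors, in control (horizontal axis) and with cholesterol (vertical axis), coloured by role. The dotted line marks equal differences. Of the 45 genes, 40 lie above 0 on both axes, against 41.8% of the genes tested in these samples, and Ddx24 lies farthest below 0 on both.

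A wider list of 26 other genes of 60S assembly, processing and export moved in a like way. None of the 26 was called for cholesterol in edgeR's test with or without the block (median log2 fold change 0.02 in both), and at an unadjusted p under 0.05 there were 0 without the block and 1 with it. DESeq2 also called 0, with or without the block. For the replicate number 19 were called (background 46.3%), of which 18 were lowest in number 3 (background 22.4%). Npm1, a histone and ribosome chaperone of the nucleolus, read 691, 564 and 359 CPM in control and 733, 622 and 359 CPM with cholesterol. Xpo1, the exporter that carries the 60S subunit and many other cargoes, was the one called gene that was highest in number 3, at 340, 353 and 386 CPM in control and 321, 360 and 390 CPM with cholesterol. Myc, whose protein binds E-boxes and drives ribosome production in growing cells, read 78.1, 73.0 and 54.7 CPM in control and 81.9, 71.8 and 62.6 CPM with cholesterol. It was called for the number (adjusted p = 4.79e-05 in edgeR's test) and not for cholesterol. Its binding partner Max read 76.6 to 81.8 CPM, and was not called for either. Of the 7 genes of the MYC family list 5 were tested, and 3 of these were called for the number. Myc was lowest in number 3, and Mxd4, at 0.606, 0.742 and 1.61 CPM in control and 0.443, 0.543 and 1.23 CPM with cholesterol, was highest there. Mnt was the other one called.

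Markers of other cells and of erythroid maturation moved with the number as well, mostly in the opposite direction. All 9 granulocyte and all 8 macrophage markers were called and highest in number 3, as were both of the tested mast cell markers and 7 of the 11 erythroid genes. Another 2 erythroid genes, Klf1 and Tfrc, were called and lowest in number 3 (Klf1, an erythroid transcription factor, at 770, 697 and 615 CPM in control and 730, 686 and 602 CPM with cholesterol). Summed over the macrophage list, the level was 11.01, 30.6 and 97.0 CPM in control and 7.24, 10.8 and 42.6 CPM with cholesterol. The granulocyte list took at most 0.067% of the counts of a sample. The globin genes and Alas2, the first enzyme of heme synthesis in red cells, were highest in the samples numbered 3 (Alas2 at 2176, 2131 and 2838 CPM in control and 1873, 2024 and 2591 CPM with cholesterol). In the paired fit, all 9 granulocyte markers, 4 of the 8 macrophage markers, 4 of the 11 erythroid genes, 3 of the 4 early progenitor genes, both of the tested mast cell markers and 1 of the 4 megakaryocyte markers, Itga2b, were lower with cholesterol, and 1 macrophage marker, Cd5l, was higher. In edgeR's fit without the block 0 genes of these 6 lists were called, and 4 of them (2 early progenitor genes, 1 mast cell marker and 1 megakaryocyte marker) had an unadjusted p under 0.05. DESeq2 without the block called 1, Gata2. With the block, DESeq2 called 7 of the granulocyte markers, 3 of the macrophage markers and 1 of the early progenitor genes (Gata2), so that Kit, Cd34, C1qc, Cd5l and Itga2b were among the calls lost, while the 4 erythroid and both mast cell calls were kept. The summed hepatocyte list was lowest in number 2 and highest in number 3 in both groups, at 110, 91.6 and 261 CPM in the control samples numbered 1 to 3 and 191, 63.2 and 222 CPM in the cholesterol samples. Of its 4 genes, 2 were called for the number, 1 of them highest in number 3. The part that these cells and the stage of the erythroblasts had in the levels of the assembly factors was not tested.

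**Figure D5:**
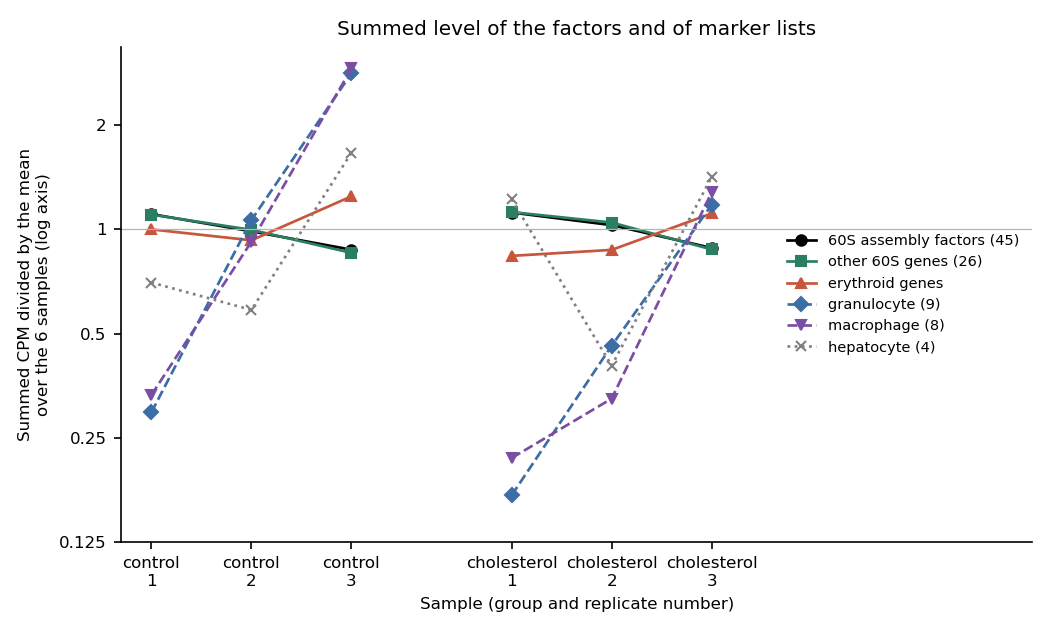
Summed CPM of the 45 factors, of the 26 other 60S genes and of 4 marker lists in each sample, divided by the list's mean over the 6 samples, on a log axis. Numbers in brackets give the genes of each list, and lines join the samples of a group as a guide. In both groups the assembly factors are lowest, and the granulocyte and macrophage markers highest, in the samples numbered 3.

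Some counts may mix in reads from other genes. Transcripts of 11 of the 45 members matched those of another gene over at least 300 bases at 95% identity or more, 9 of them a processed pseudogene (Ddx18, Mrto4, Nsa2, Nvl, Pes1, Rpf2, Rsl24d1, Senp3 and Wdr12), so that reads may have been divided between the gene and the pseudogene. The pseudogene matched by Nvl is Fgfr3-ps, which overlaps its locus. Nsa2 matched 6 such pseudogenes. The locus of 18 members overlaps another annotated gene, among them Noc2l with Samd11 and Bop1 with Mroh1 and Scx, and the library method is not stated to mark the strand. The levels of these members are uncertain to that extent.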

How the data were processed

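RNA-seq of 3 control and 3 cholesterol samples was taken from tables of the whole series. The authors deposited unnormalized expected counts, which RSEM estimates per gene and which can be fractional (27.9% to 29.5% of each sample's values). They also deposited normalized values, read here as FPKM because counts divided by value and total gave near the same length in all samples. Per the submitters' processing notes, HISAT2 2.0.4, Bowtie2 2.2.5, RSEM 1.2.12 and DESeq2 1.4.5 were used with build GRCm38.p6. The annotation and the filters are not given in the sources used here. Groups come from the sample labels.

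The expected counts were rounded, filtered with filterByExpr (minimum count 10, minimum total 15), scaled by TMM and tested with the robust quasi-likelihood test of edgeR 4.0.16 in R 4.3.3, with Benjamini-Hochberg adjustment over 11277 genes. Standard errors come from the F statistic. The main fit held the treatment alone, and a further fit held the replicate number as a block. The number was tested in the latter with treatment in the model. CPM are TMM-scaled, and log2 CPM add a prior count of 2. Pairing was checked by correlating, over genes, how far the samples sharing a number lay from their group means. The correlations were 0.729, 0.348 and 0.825 for numbers 1, 2 and 3. All exceeded 0.1, and the numbers were taken to pair the samples. The check cannot settle this for numbers 1 and 2. Deviations within a group sum to 0 in each gene, so the libraries numbered 3, which stood apart, can raise the other correlations. Samples of unlike number were not correlated. By chi-square per degree of freedom, control 1 lay nearer to control 2 (9.33) than to cholesterol 1 (10.4). Cholesterol 1 lay nearest to cholesterol 2 (9.85), control 2 to cholesterol 2 (8.20) and control 3 to cholesterol 3 (12.2). No libraries were copies (chi-square per degree of freedom at least 8.20). The scripts were tested on simulated data. Alternatives were DESeq2 1.42.0, limma 3.58.1 on log2(FPKM + 1), other scalings and filters, and samples left out.

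Members and lists were chosen with earlier results of these data known. Named members are those called for cholesterol in either fit, those whose groups do not overlap, the most abundant per length and the one with the smallest p in each role group, and the 3 with the largest and smallest range over samples. Promoters come from RefSeq (GRCm38.p6), and transcripts from GENCODE were compared with blastn 2.17.0.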

Additional observations from a re-analysis of the deposited data

How the results depend on the processing

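With the replicate number as a block, which treats same-numbered samples as pairs, the calls over all genes went from 1 higher and 0 lower to 186 higher and 586 lower. Those among the members went from 0 to 1 higher. The block changed the call of no other member. Without the pairs numbered 1, 2 and 3 in turn, that fit called 118, 67 and 210 genes higher and 703, 229 and 516 lower, and among the members 0, 0 and 1 higher. DESeq2 called 2 genes higher and 26 lower without the block, 44 and 242 with it, and 0 members in either. Members called lower numbered 0 under every alternative. The members' median log2 fold change, 0.03, was 0.0614 with total counts alone, 0.049 in limma on log2 FPKM and 0.0151 with the block and no pair 2. Their mean difference within pairs, 0.03, was 0.0596 with total counts alone. Members called for the number fell from 40 to 20 without the samples numbered 3, an alternative chosen after seeing the data. The share over all genes tested fell from 46.3% to 14.9%. Otherwise the members called lay between 27 (DESeq2's likelihood ratio test) and 41. They numbered 32 without the samples numbered 1 (background 36.0%) and 41 without those numbered 2 (background 46.5%), both also chosen after seeing the data.

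Leaving out 1 sample leaves a number in 1 group only. The members' median lay between −0.0764 (without cholesterol 1) and 0.145 (without cholesterol 3), 5 (without control 3) to 42 (without control 1) members were positive, and 0 to 7 genes were called lower. Of the 114 log2 fold changes of named members with 1 sample left out, 33 changed direction and 0 were called. Their ranges were −0.232 to 0.234 for Bop1, −0.182 to 0.239 for Ddx24, −0.0893 to 0.206 for Ftsj3, −0.067 to 0.0272 for Gnl2, −0.071 to 0.201 for Gtpbp4, −0.0338 to 0.257 for Mdn1, −0.14 to 0.226 for Mrto4, −0.0433 to 0.203 for Noc2l, −0.132 to 0.311 for Nop16, −0.0289 to 0.112 for Nvl, −0.121 to 0.203 for Pes1, −0.074 to 0.036 for Rpf1, −0.0809 to 0.344 for Rrp1b, −0.234 to 0.0497 for Rsl24d1 and −0.111 to 0.291 for Wdr12. Those that kept their direction lay between 0.0634 and 0.333 for Ppan, 0.024 and 0.151 for Nsa2, −0.131 and −0.0429 for Ddx55 and −0.11 and −0.0543 for Senp3. Of the 209 under other alternatives, 7 changed direction, all within 0.05 of 0. Bop1 was at −0.0414 with the block and no pair 3. Gnl2 was at 0.0104 with total counts alone and 0.000178 in limma. Rpf1 was at 0.0256 and 0.0159 in these, and at 0.0392 and 0.00928 with the block and no pair 1 or 3. The cause was not tested in any of these.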
